A study of Mus musculus with 4 samples.

Results

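The genes of MHC class I presentation were followed probe set by probe set in unstimulated L929 and NIH3T3 cells. They were the heavy chains H2-D1, H2-K1, H2-L, H2-T23 and H2-Q7, the light chain B2m, the peptide transporter genes Tap1 and Tap2, the loading factor Tapbp, and Cd74, the class II invariant chain. All probe sets whose platform symbol field holds one of these 10 genes were taken, also those with several symbols, which gave 29 of 45037 probe sets other than Affymetrix controls. Of these, 19 report heavy chains and 10 the remaining genes. A probe set was found for 9 of the 10 genes, and H2-L was not analysed here. The genes were chosen by their signals on these same arrays, so their differences are a description, with no test.

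L929 is a connective tissue fibroblast line of C3H mouse origin. NIH3T3 is an embryonic fibroblast line of NIH Swiss mouse origin. The labels name no transgene, deletion or treatment for either line, and 2 arrays (Affymetrix Mouse Genome 430 2.0) were hybridised for each. The series title describes L929 as sensitive to necrosis and NIH3T3 as sensitive to apoptosis, and with 1 line of each kind the mode of death, the strain and the line cannot be told apart. Signals are MAS5 signals in arbitrary units after scaling each array to the same trimmed mean. In such bulk RNA, fewer cells with a transcript and less of it per cell cannot be told apart.

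A class I molecule is a polymorphic heavy chain bound to the invariant light chain beta-2-microglobulin and a short peptide. Peptides made by the proteasome enter the endoplasmic reticulum through the TAP1 and TAP2 transporter and are loaded with the help of tapasin and general chaperones, and the complex then travels to the cell surface. H2-K, H2-D and H2-L are the classical heavy chains of the mouse, which vary strongly between strains and resemble one another closely, while the Qa molecules of the H2-Q and H2-T regions are less variable relatives. Cd74 instead occupies the groove of class II molecules, which are usually made by professional antigen-presenting cells.

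The array medians as deposited lay between 23.5 and 38.3, the highest in NIH3T3 replicate 2, and the scaling factors ran from 0.726 to 1.14. Over the 26517 probe sets that passed a filter on low signals, the arrays of a line correlated with r = 0.982 and 0.980, against 0.834 to 0.843 between lines. This is a description of arrays whose probe sets are not independent. Of 10 fibroblast markers, 8 lay above the filter level of 17.3 on both L929 arrays and 10 on both NIH3T3 arrays. The matrix proteoglycan genes Dcn and Lum exceeded it on 1 of 2 L929 arrays. Of 3 B cell, 3 T cell and 3 endothelial markers with a probe set, 0 exceeded it on both arrays of a line. Of 4 epithelial markers 2, Epcam and Krt8, exceeded it on both arrays of each line. Separate cultures are not stated for the replicates, so each p-value rests on a spread between samples that may be technical.

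Reference promoters are shown first, because the classical heavy chain genes H2-K1 and H2-D1 carry closely similar sequence there. The letters are those of the reference assembly, and the H2 sequences of L929 and NIH3T3 were not analysed here. Promoters of the RefSeq table (GRCm38.p6) were used for 7 of the 10 genes. The 180 bases before the listed start are printed 5′ to 3′ for both classical heavy chains, the light chain and Tap1. H2-K1 has several listed starts, and the first listed was used. The printed stretch lies within the span that the gene table gives for H2-K1, whose annotated models reach further upstream. Capitals mark matches on either strand to the IRF core AANNGAAA, a motif of interferon regulatory factors, and to the kB consensus of NF-kB.

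H2-K1 (chr17:34000348-34000527, minus strand): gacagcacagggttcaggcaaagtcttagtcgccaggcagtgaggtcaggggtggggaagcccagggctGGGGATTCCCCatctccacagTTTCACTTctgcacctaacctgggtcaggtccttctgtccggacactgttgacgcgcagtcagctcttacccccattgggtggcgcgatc

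H2-D1 (chr17:35262914-35263093, plus strand): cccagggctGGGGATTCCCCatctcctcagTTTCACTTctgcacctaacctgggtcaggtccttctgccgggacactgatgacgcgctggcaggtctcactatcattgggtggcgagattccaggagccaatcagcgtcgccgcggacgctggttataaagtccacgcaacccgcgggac

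B2m (chr2:122147507-122147686, plus strand): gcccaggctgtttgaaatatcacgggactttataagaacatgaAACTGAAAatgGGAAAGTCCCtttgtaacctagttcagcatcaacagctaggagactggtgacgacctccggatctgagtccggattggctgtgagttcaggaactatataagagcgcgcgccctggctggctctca

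Tap1 (chr17:34187376-34187555, plus strand): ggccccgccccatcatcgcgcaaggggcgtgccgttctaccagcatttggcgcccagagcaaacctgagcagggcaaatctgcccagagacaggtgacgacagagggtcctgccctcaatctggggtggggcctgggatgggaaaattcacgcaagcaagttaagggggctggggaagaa

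Where the H2-K1 and H2-D1 stretches overlap after alignment, 108 of 121 positions (89.3%) were identical. H2-Q7 shared 84.8% with H2-K1 and 84.0% with H2-D1. The kB match of both classical genes is the same run of letters. The IRF core was found in H2-K1, H2-D1, H2-Q7, H2-T23 and B2m, and in 15.1% of all 32851 stretches of the same length. The kB consensus was found in H2-K1, H2-D1, H2-Q7 and B2m, and in 2.86% of all stretches. The CREB-type motif TGACG, searched on both strands, lay in H2-K1, H2-D1, H2-Q7, B2m and Tap1 (14.8% of all). CCAAT, the NF-Y box, lay in all 7 except Tap1 (27.5% of all). A match describes these letters and is not a measured site.

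The classical heavy chain probe sets pointed in opposite directions. Of the 14 for H2-D1, H2-K1 or both that passed the filter on low signals, 5 were higher in L929 and 5 lower, counted where the fold was above 1.5 and the lines did not overlap. Over all 26517 probe sets that passed, 16.5% were higher in L929 and 18.6% lower by that count, and nothing is read from the members' shares, since these signals chose the genes. The median log2 difference (L929 minus NIH3T3) of the 14 was -0.027, against -0.0072 over all that passed, with a lowest value of -4.18 and a highest of 6.61.

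H2-D1, a classical heavy chain gene on chromosome 17, had 9 probe sets of its own. Probe set 1450170_x_at measured 4123 and 3972 in L929 and 51.9 and 20.9 in NIH3T3, or 4047 ± 107 against 36.4 ± 21.9 (SD, n = 2), 97.4-fold higher in L929. Probe set 1452544_x_at measured 176 and 182 in L929 and 3.35 and 13.9 in NIH3T3; with both NIH3T3 arrays under the filter level, it was at least 10.37-fold higher in L929. Probe set 1427651_x_at measured 93.8 and 86.3 in L929 and 18.2 and 18.1 in NIH3T3, 3.75-fold higher in L929. In all 3 the L929 arrays lay close together and above both NIH3T3 arrays, which were near or under the level in the last 2.

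Another 4 probe sets of the same gene were brighter in NIH3T3. Probe set 1425545_x_at measured 245 and 169 in L929 and 2901 and 2714 in NIH3T3, or 207 ± 53.5 against 2808 ± 132, 13.3-fold higher in NIH3T3. Probe set 1451784_x_at measured 294 and 225 in L929 and 2589 and 2571 in NIH3T3, 9.75-fold higher in NIH3T3. Probe set 1451683_x_at measured 43.9 and 25.01 in L929 and 602 and 909.5 in NIH3T3, 18.1-fold higher in NIH3T3. In these 3 both NIH3T3 arrays were far above both L929 arrays, although the NIH3T3 arrays of the last one were wider apart. Probe set 1426324_at, the only one of the 7 with no _x_ in its name, measured 104 and 122 in L929 and 275 and 271 in NIH3T3, a smaller difference of 2.33-fold. Of the remaining pair, 1425614_x_at measured 12.3 and 16.1 in L929 and 21.98 and 22.5 in NIH3T3, under the level in L929 and at least 1.29-fold higher in NIH3T3. The last, 1451934_at, measured 4.49 and 16.5 in L929 and 1.11 and 8.55 in NIH3T3, under the level on every array.

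H2-K1, the other classical heavy chain gene of chromosome 17 measured here, had 4 probe sets of its own, and these also split. Probe set 1427746_x_at measured 430.3 and 458 in L929 and 96.6 and 84.6 in NIH3T3, or 444 ± 19.5 against 90.6 ± 8.52, 4.59-fold higher in L929. Probe set 1451931_x_at measured 146 and 148 in L929 and 2004 and 2084 in NIH3T3, or 147 ± 1.27 against 2044 ± 56.4, 13.2-fold higher in NIH3T3. The lines did not overlap in either, and the direction was opposite. Probe set 1425336_x_at was bright in both lines, at 705 and 766 in L929 and 600.1 and 681 in NIH3T3, with no overlap but only 1.15-fold apart. Probe set 1450534_x_at overlapped, at 38.7 and 21.5 in L929 and 27.9 and 46.7 in NIH3T3.

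Probe sets with several symbols cannot be given to a single gene. The one assigned to both H2-K1 and H2-D1, 1424948_x_at, measured 1218 and 1242 in L929 and 103 and 148 in NIH3T3, or 1230.0 ± 16.6 against 125 ± 32.2, 9.42-fold higher in L929 with no overlap. Probe set 1451593_at (H2-Q5 and H2-K1) overlapped, at 29.7 and 53.8 in L929 and 37.9 and 23.4 in NIH3T3. Probe set 1422348_at (Gm38417, H2-Q2 and H2-D1) measured 17.7 and 1.69 in L929 and 6.04 and 3.49 in NIH3T3, above the level on 1 array only. Of these 3, the probe set shared by both classical genes was thus the one that separated the lines.

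**Figure D1:**
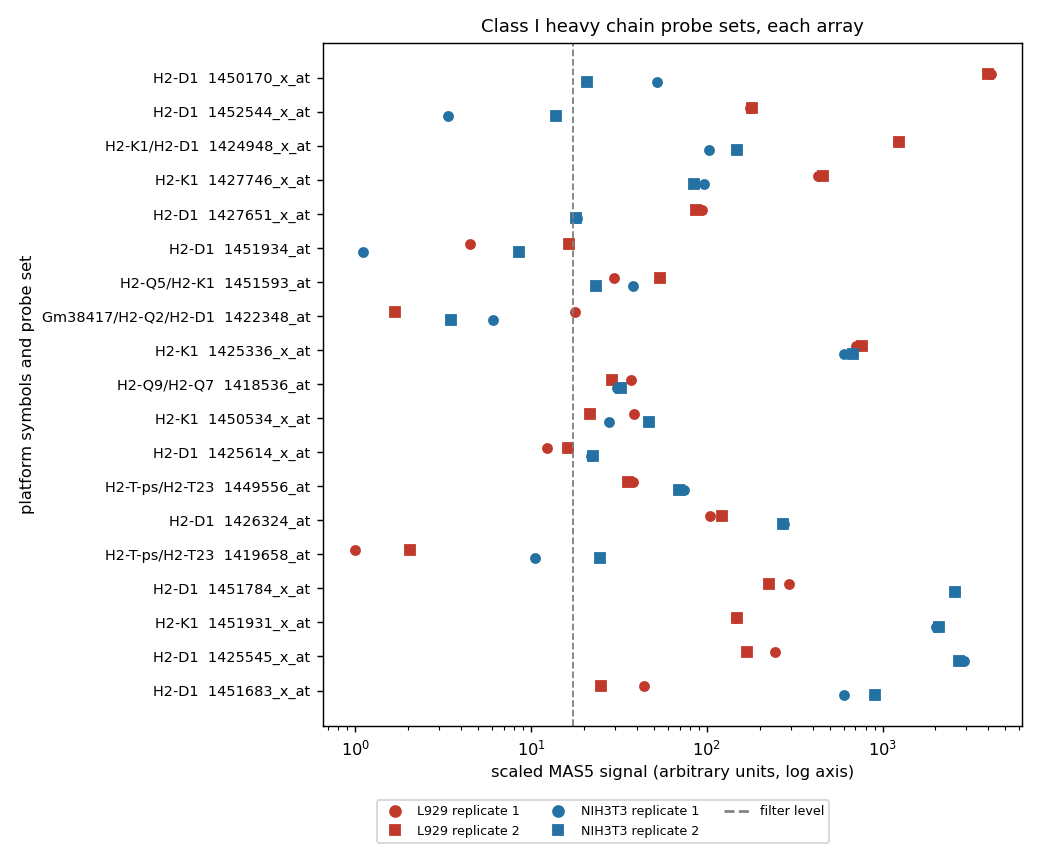
Scaled MAS5 signal (log axis, arbitrary units) of the 19 heavy chain probe sets on each of the 4 arrays, ordered by the difference between the lines, with the filter level of 17.3 dashed. L929 (red) lies to the right at the top, up to 4123 for 1450170_x_at of H2-D1, and NIH3T3 (blue) to the right at the bottom, up to 2901 for 1425545_x_at of the same gene.

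The nonclassical heavy chains among the members, H2-T23 and H2-Q7, were dim and differed less than the widest classical probe sets. H2-T23 encodes Qa-1, which presents leader peptides of other class I chains to NK cell receptors. Its probe set 1449556_at, shared with H2-T-ps, measured 37.8 and 35.7 in L929 and 74.6 and 69.0 in NIH3T3, 1.78-fold higher in NIH3T3 with no overlap. The other, 1419658_at, also shared with H2-T-ps, measured 0.996 and 2.06 in L929 and 10.5 and 24.5 in NIH3T3; 1 of 4 arrays exceeded the level, it did not pass the filter, and no fold is given. H2-Q7, a Qa-2 gene, shares probe set 1418536_at with H2-Q9, which overlapped at 37.0 and 28.9 in L929 and 30.9 and 32.7 in NIH3T3.

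The spread between probe sets of one gene was wider for H2-D1 than for any other gene with several probe sets past the filter. Its 8 such probe sets covered 10.78 log2 units, and it ranked 1 of 5821 genes, a rank it kept under 9 other choices of scaling, offset and arrays. The 4 probe sets of H2-K1 covered 5.93 log2 units and ranked 6, with ranks from 2 to 17 under those choices. Since these signals chose the genes and the choices reuse the same arrays, the ranks and shares given here are a description and no test. The median gene covered 0.43 log2 units, and the 95th percentile was 1.76. Genes with more probe sets spread more. The median was 0.73 over the 1088 genes with at least 4 probe sets, 0.460% of which were as wide as H2-K1, and 1.06 over the 18 with at least 8, where the 95th percentile was 5.79. Probe sets counted in both directions were found in 88 of the 5821 genes (1.51%), in 41 of those with at least 4 (3.77%) and in 4 of the 18 with at least 8 (22.2%). H2-D1 and H2-K1 were among them. B2m and Tapbp, with 2 probe sets each, spread by 0.16 and 0.13.

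**Figure D2:**
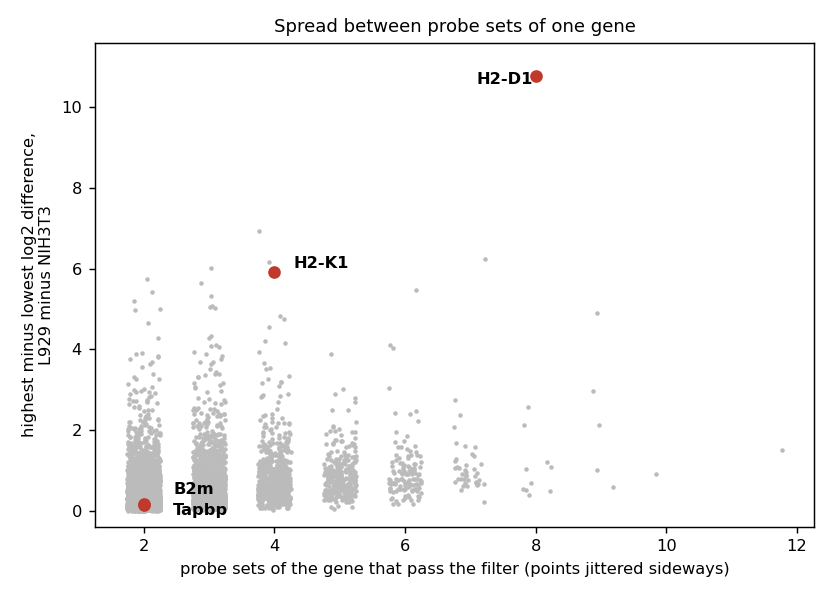
Highest minus lowest log2 difference (L929 minus NIH3T3) over the probe sets of a gene, against the number of its probe sets past the filter, for 5821 genes with several such probe sets (grey). H2-D1 at 10.78 is the widest, H2-K1 lies at 5.93, and B2m and Tapbp lie low at 0.16 and 0.13.

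Most split heavy chain probe sets have names ending in _x_at, which marks probes that may also bind other transcripts. Of the 19 heavy chain probe sets 12 have that ending, against 5.42% of the array. Leaving out names in _x_at and _s_at, 0 heavy chain probe sets were higher in L929 and 2 lower, 1426324_at of H2-D1 and 1449556_at of H2-T23. Across the array, 31.9% of 1672 _x_at probe sets and 35.1% of 19716 plain _at probe sets were past the fold with no overlap. Whether the H2 alleles of a line bind particular probes better was not tested, as neither the probe sequences nor the H2 sequences of the lines were analysed here.

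Both light chain probe sets were higher in L929. B2m, on chromosome 2, encodes beta-2-microglobulin, the partner of the class I heavy chains. Probe set 1449289_a_at measured 6259 and 5656 in L929 and 3302 and 3422 in NIH3T3, or 5957 ± 427 against 3362 ± 85.4, 1.77-fold higher in L929. Probe set 1452428_a_at measured 4428 and 4131 in L929 and 2831 and 2559.8 in NIH3T3, or 4279.8 ± 209.8 against 2695 ± 191, 1.59-fold higher. The lines overlapped in neither. Without scaling the log2 differences were 0.54 and 0.38, under the fold threshold, which 1452428_a_at also missed with quantile normalization. Without scaling the median of all genes moved from 0.011 to -0.25.

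Of the transporter and tapasin genes, Tap1 was higher in L929, and Tap2 and Tapbp hardly differed. Tap1 and Tap2 encode the subunits of the peptide pump. Tap1 probe set 1416016_at measured 108 and 103 in L929 and 42.9 and 33.5 in NIH3T3, or 106 ± 3.37 against 38.2 ± 6.64, 2.47-fold higher in L929 with no overlap. The other 3 Tap1 probe sets, 1420274_at, 1448177_at and 1449803_x_at, lay under the level on every array, between 0.877 and 10.11, and no direction is read from them. Tap2 measured 151 and 167 in L929 and 173 and 168 in NIH3T3, 1.07-fold apart. Tapbp encodes tapasin, which bridges TAP and the empty heavy chain, and its probe set 1421812_at measured 681 and 686 in L929 and 675 and 617 in NIH3T3. Its second, 1450378_at, measured 192 and 202 in L929 and 209.9 and 199 in NIH3T3 and overlapped.

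Cd74 was far brighter in L929. Probe set 1425519_a_at measured 446 and 443 in L929 and 42.0 and 25.9 in NIH3T3, or 445 ± 2.10 against 34.0 ± 11.4, 10.99-fold higher in L929 with no overlap. The class II chains it pairs with were near the bottom of the range: 11 probe sets of H2-Aa, H2-Ab1, H2-Ea and H2-Eb1 ran from 0.200 to 22.1 in L929 and from 0.2503 to 22.7 in NIH3T3, and 0 exceeded the level on both arrays of a line. Ciita, the class II transactivator, measured 24.1 and 24.4 in L929 and 26.1 and 15.5 in NIH3T3 (limma adjusted p = 0.680). Of 10 macrophage and dendritic cell markers, 7 exceeded the level on both L929 arrays and 5 on both NIH3T3 arrays, with summed signals of 279.7 to 300.1 in L929 and 480.0 to 493 in NIH3T3. Ptprc, Itgam and Fcer1g did so in neither line, Lyz2 was higher in L929 and Cd14 and Cd68 lower (limma adjusted p = 0.0157, 3.2e-05 and 0.0148), and their part in the Cd74 signal was not tested. The call of Lyz2 was lost without scaling or without NIH3T3 replicate 2, and that of Cd68 without NIH3T3 replicate 1 (limma adjusted p = 0.0773, 0.0708 and 0.0551). Among the 10 probe sets of B2m, Tap1, Tap2, Tapbp and Cd74, 7 passed the filter, 4 were higher in L929 and 0 lower, by fold and overlap. Over all 26517 probe sets that passed, 16.5% were higher in L929 and 18.6% lower by that count. Nothing is read from the members' share, since these signals chose the genes.

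**Figure D3:**
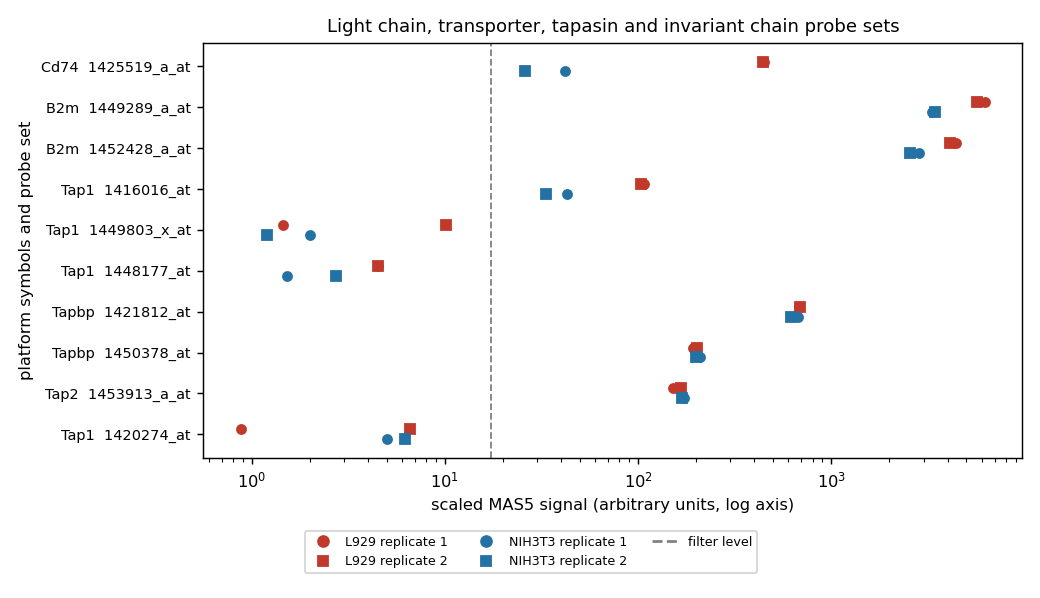
Scaled MAS5 signal (log axis, arbitrary units) on each of the 4 arrays for the 10 probe sets of Cd74, B2m, Tap1, Tapbp and Tap2, with the filter level of 17.3 dashed. Cd74, both B2m probe sets and 1416016_at of Tap1 lie higher in L929 (red), Tapbp and Tap2 nearly coincide, and 3 Tap1 probe sets lie below the level.

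Other genes of the class I pathway differed in both directions. Of 39 tested genes of the proteasome, loading, peptidase and regulator lists, 10 were called higher in L929 and 6 lower by limma, at an adjusted p under 0.05 and a fold above 1.5. Over all 12334 genes tested, 16.5% were called higher and 17.1% lower. The median log2 difference of the 39 was 0.073, against 0.011 over all genes. Of all called genes 49.0% were higher in L929, and 30.1% without scaling.

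Inducible proteasome subunits encoded beside the transporter genes were among those higher in L929. Psmb8, a catalytic subunit of the immunoproteasome, measured 113 and 89.4 in L929 and 4.39 and 3.16 in NIH3T3, which puts L929 at least 5.82-fold higher (limma adjusted p = 3.88e-05). Psmb9, the catalytic subunit whose gene adjoins Tap1, measured 118 and 108 in L929 and 30.1 and 47.9 in NIH3T3, 2.62-fold higher (limma adjusted p = 0.00173). The lines did not overlap in either. Psmb10, the other inducible subunit, measured 176 and 164 in L929 and 155 and 201 in NIH3T3 and overlapped (limma adjusted p = 0.829). Psme1, a subunit of the PA28 activator, was 2.31-fold lower in L929 (limma adjusted p = 2.76e-05), and Psme3 was not called at a log2 difference of -0.20.

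Among 20 tested regulators 4 were higher in L929 and 2 lower. Nlrc5, the class I transactivator, measured 67.0 and 89.1 in L929 and 11.7 and 4.87 in NIH3T3, which puts L929 at least 4.48-fold higher (limma adjusted p = 3.88e-04). Of the RFX complex, which binds the X box of MHC promoters, Rfxap was 1.73-fold higher (limma adjusted p = 0.00190) and Rfx5 1.73-fold lower (limma adjusted p = 0.00635). Rfxank, its remaining subunit, was 1.92-fold lower (limma adjusted p = 0.00978), but its probe sets gave log2 differences between -0.94 and 0.68, and its sign turned when either NIH3T3 array was left out (0.86 without replicate 1, 0.50 without replicate 2). Of the interferon receptor chains, Ifnar2 was 3.63-fold higher (limma adjusted p = 9.74e-05) and Ifngr2 1.51-fold higher (limma adjusted p = 0.0122).

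Without scaling, the calls of Rfxap, Rfx5 and Ifngr2 were lost (limma adjusted p = 0.519, 0.0665 and 0.723). Ifngr2 was also lost with an offset of 32, without L929 replicate 2 or without NIH3T3 replicate 1, at log2 differences of 0.51, 0.51 and 0.49. The other 14 regulators were not called. Their log2 differences were positive for Ifnar1 (0.31), Irf9 (0.26), Tyk2 (0.18), Nfyb (0.18), Rela (0.15) and Jak2 (0.0091), and negative for Nfyc (-0.014), Ifngr1 (-0.045), Irf1 (-0.30), Stat2 (-0.30), Nfya (-0.43), Creb1 (-0.44), Jak1 (-0.51) and Irf2 (-0.54). The signs of Irf9, Tyk2, Nfyb, Rela, Jak2, Nfyc and Ifngr1 turned under another scaling. Irf2, Nfya, Creb1 and Jak1 passed the limma adjusted p and missed the fold. Irf8 was too dim to test, and Nfkb1 was not analysed here.

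Of 8 loading and folding genes 3 were higher and 1 lower in L929. Pdia6, a protein disulfide isomerase, was 3.01-fold higher (limma adjusted p = 1.25e-05), and Ero1a, which reoxidises such enzymes, 2.73-fold higher (limma adjusted p = 1.05e-05). Hspa5, the chaperone BiP, was 1.87-fold higher (limma adjusted p = 0.00362), a call lost without L929 replicate 1 or 2 (adjusted p = 0.0801 and 0.102). Tapbpl, the tapasin relative TAPBPR, was 1.84-fold lower (limma adjusted p = 0.0363), a call lost on leaving out L929 replicate 1 or either of NIH3T3 replicates 1 and 2 (adjusted p = 0.181, 0.0865 and 0.116). The loading chaperones Calr (0.30), Canx (0.24) and Pdia3 (0.43) and the peptide-trimming enzyme Erap1 (-0.072) were not called, with their log2 differences in brackets. The sign of Canx turned without scaling, and that of Erap1 with quantile normalization. Of 6 cytosolic peptidases Thop1 was 1.65-fold higher, Npepps 2.30-fold lower and Nrdc 1.69-fold lower (limma adjusted p = 8.28e-04, 3.72e-05 and 9.67e-04). With the dimmest probe set of a gene deciding, the calls of Pdia6, Hspa5 and Ifnar2 were lost (limma adjusted p = 0.702, 0.281 and 0.950). Those of Rfxap, Ifngr2, Thop1 and Nrdc were lost as well (limma adjusted p = 0.608, 0.603, 0.349 and 0.00610). Under this rule a call also had to share the sign of the median log2 difference over the gene's probe sets. For Nrdc that median was -0.041, against 0.67 for the dimmest probe set. The probe sets of Thop1 and of Nrdc disagreed in sign, and the call of Thop1 was lost without scaling (limma adjusted p = 0.595).

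**Figure D4:**
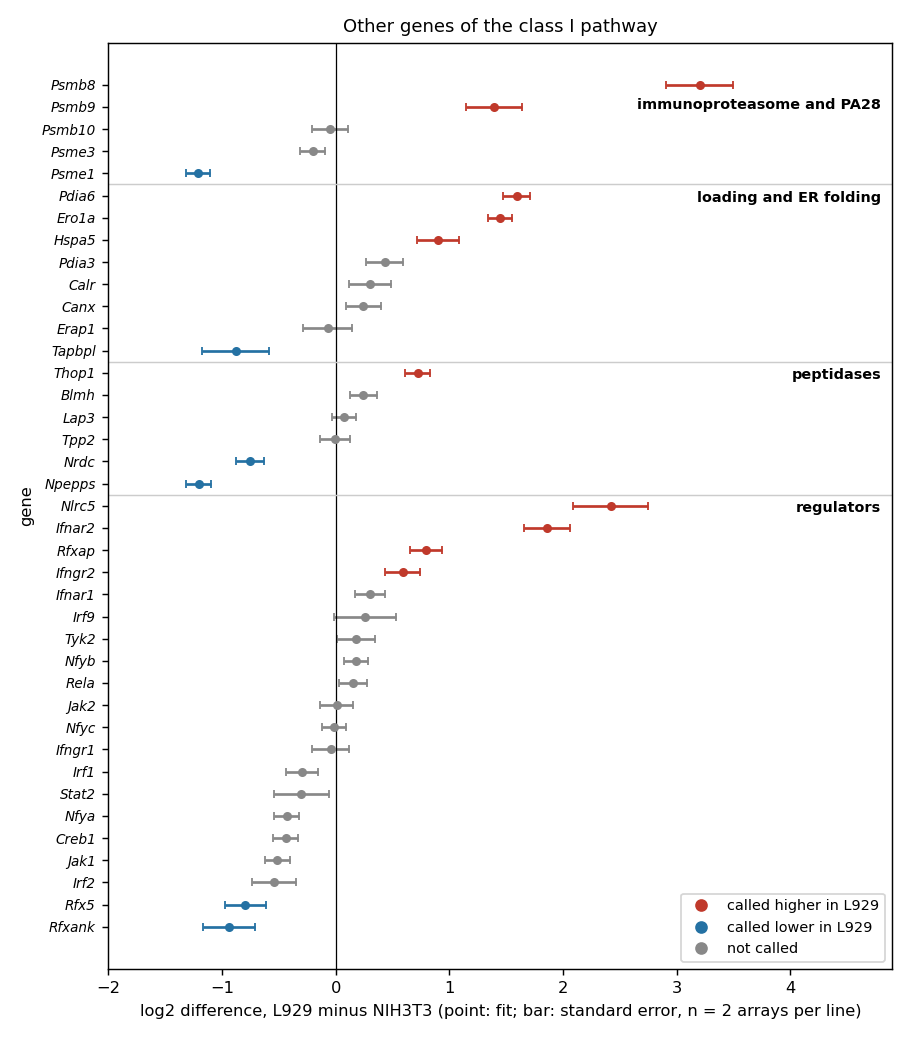
Log2 difference (L929 minus NIH3T3) with its standard error for the 39 tested class I pathway genes other than the members, grouped by list, with genes called higher in L929 in red, called lower in blue and not called in grey. Psmb8 and Nlrc5 are drawn at their fitted values, with both NIH3T3 arrays under the filter level, so only bounds of at least 5.82-fold and 4.48-fold are read from them, while Psme1 lies at -1.21 and Npepps at -1.20.

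Of 9 tested class I relatives outside the members, 1 was higher and 4 were lower in L929, against 16.5% and 17.1% of all 12334 genes. Mr1, which presents vitamin metabolites to MAIT cells, was 2.93-fold lower (limma adjusted p = 1.86e-04), and Procr, the protein C receptor, 2.33-fold lower (limma adjusted p = 2.25e-04). Cd1d1, which presents lipids, was 1.92-fold lower (limma adjusted p = 0.00585). H2-M3, which presents formylated peptides, was 1.65-fold lower (limma adjusted p = 0.0306). Its call was lost without scaling, without a filter and without the mean-variance trend (limma adjusted p = 0.0899, 0.0518 and 0.0745). It was also lost with an offset of 32, at a log2 difference of -0.58 under the fold. Without L929 replicate 1 or NIH3T3 replicate 2 the call was lost too, at log2 differences of -0.59 and -0.45. Hfe, an iron-regulating class I protein, was 1.93-fold higher (limma adjusted p = 0.0126), a call lost without scaling and without L929 replicate 2 (adjusted p = 0.277 and 0.0517).

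In the class II list 1 of 9 tested genes was higher and 1 lower, against 16.5% and 17.1% of all 12334 genes. Ifi30, a lysosomal thiol reductase, was 3.38-fold higher in L929 (limma adjusted p = 4.87e-06), and Ctsl, the protease cathepsin L, 2.59-fold lower (limma adjusted p = 6.32e-04). Of 12 tested interferon-induced genes 3 were higher and 4 lower. Oas1a, an antiviral synthetase, was 4.58-fold higher (limma adjusted p = 0.00122), Bst2, or tetherin, 2.35-fold higher (limma adjusted p = 0.00100), and Iigp1, an immunity-related GTPase, 2.02-fold higher (limma adjusted p = 0.0235). The calls of Bst2 and Iigp1 were lost without scaling (adjusted p = 0.104 and 0.272 by limma). Iigp1 was also lost without a filter (limma adjusted p = 0.0658). Leaving out L929 replicate 1, L929 replicate 2 or NIH3T3 replicate 1 lost it too, at log2 differences of 0.98, 1.04 and 0.80. Gbp2, a guanylate-binding protein, was 3.85-fold lower (limma adjusted p = 0.00165), Ifit2 3.62-fold lower (limma adjusted p = 2.79e-05), Ddx58, the RNA sensor RIG-I, 3.51-fold lower (limma adjusted p = 9.64e-04), and Irgm1 1.98-fold lower (limma adjusted p = 0.00246). Oas1a and Iigp1 exceeded the level on 1 of 2 NIH3T3 arrays, and Gbp2 and Ddx58 on 1 of 2 L929 arrays. The called genes of this list did not share a direction.

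Of 40 tested neighbours of the class I and class II genes in the MHC region, 3 were higher in L929 and 11 lower. The shares over all 12334 genes tested were 16.5% higher and 17.1% lower. C2, a complement component, measured 91.9 and 82.3 in L929 and 8.24 and 6.90 in NIH3T3, which bounds the difference at 5.04-fold or more (limma adjusted p = 9.41e-05). Stk19 was 1.86-fold and the zinc transporter gene Slc39a7 1.60-fold higher (limma adjusted p = 0.00552 and 0.00135), and both calls were lost without scaling (limma adjusted p = 0.392 and 0.495). Ddah2, Zfp57 and Flot1 were lower, at log2 differences of -2.69, -2.27 and -2.12 (limma adjusted p = 4.38e-06, 0.00211 and 1.91e-06), with Zfp57 above the level on 1 of 2 L929 arrays.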

How the data were processed

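The authors deposited 1 intensity per probe set and array, a MAS5 signal per the submitters' processing notes. For its version, scaling target and detection calls, the sources used here give nothing. Arrays were brought to one trimmed mean (2% off each end), an offset of 8.01 (the 25th percentile) was added and log2 was taken, so folds of dim genes are understated. The filter kept features whose mean log2 signal over all 4 arrays exceeded that of a signal of 17.3, the 40th percentile, which is no measured detection limit. A line with both arrays under it gives a bound ("at least") against that level. Lines were compared with limma 3.58.1 in R 4.3.3 (lmFit, eBayes with trend), with Benjamini-Hochberg adjustment over 12334 genes, each represented by its brightest probe set with a unique symbol. The platform annotation gave 34945 probe sets a unique symbol, 932 several and 9160 none. The code was tested on simulated data.

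The members and gene lists were chosen with earlier results of these data known. Named are all member probe sets, all tested regulators and up to 3 called genes per direction of each other list. H2-M3, Irgm1, the shared probe set of H2-Q6 and H2-Q8, and the genes given as not called were named after their values were seen. The NKG2D ligand list had 1 tested gene, which was not called. Of 10 fibroblast markers 1 was called higher in L929 (Pdgfrb) and 5 lower, led by Dcn, Thy1 and Lum (limma adjusted p = 1.14e-04, 1.7e-06, 4.27e-08 and 1.13e-06); the call of Pdgfrb was lost without scaling (adjusted p = 0.245). The tested endothelial marker Cdh5 and epithelial markers Epcam and Krt8 were not called (limma adjusted p = 0.735, 0.466 and 0.975). Alternatives changed the scaling, offset, filter, variance model, probe set rule and pairing, or left out an array. The number of arrays limits the precision. Same-numbered arrays did not deviate together (r = 0.007), and the numbers were not used as pairs in the main fit. With 2 arrays per line, this coefficient cannot exclude that same-numbered arrays were handled together.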

Additional observations from a re-analysis of the deposited data

How the results depend on the processing

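Of the 16 member probe sets past the fold with no overlap, 1 of them under the filter, 0 turned direction under the 9 choices of scaling, offset and arrays, and 4 of 144 recomputed values lost the fold or the gap. With 1 array left out, 5 to 6 heavy chain probe sets were higher, the pathway counts were 8 to 10 higher and 4 to 6 lower, and the spread ran from 9.97 to 11.603 for H2-D1 and from 5.81 to 6.04 for H2-K1. With an offset of 32 the spreads were 9.53 and 5.49, and with an offset of 1 that of H2-K1 was 6.07, since the offset acts on dim signals. Without scaling 2 probe sets other than heavy chains were higher instead of 4, because both B2m probe sets missed the fold. Dropping _x_at and _s_at names left 0 higher and 2 lower heavy chain probe sets of the members. With the dimmest probe set of a gene deciding the call, 4 pathway genes were higher instead of 10. That rule also required the sign of the median log2 difference over the gene's probe sets. A gene whose probe sets disagree can lose its call by this rule. How much each condition contributed was not tested. With the replicate block the pathway counts were again 10 and 6, and 0 of the 80 list genes recomputed changed their call with the block. Without scaling 693 genes were called higher and 1607 lower, against 2030 and 2109, and small differences of members turned sign: -0.085 for 1425336_x_at of H2-K1, -0.20 for 1421812_at of Tapbp and -0.20 for 1418536_at of H2-Q7.

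Of 80 list genes recomputed (all called ones, all pathway genes and the others named), 19 turned sign under some alternative, 3 of them called. Of the called, with 1 array left out Rfxank ran from -1.09 to 0.86 and Vps52, a neighbour called lower, from -0.999 to 2.63. The brightest probe set was chosen anew in each setting, and the positive values of both genes came from another probe set. With all arrays the probe sets of Vps52 gave log2 differences between -0.85 and 2.42. For the dimmest probe set rule, the log2 differences given here are medians over the probe sets of a gene. These medians were 0.44 for Rfxank, 0.79 for Vps52 and 0.12 for Pbx2, another neighbour called lower. Of genes not called, with 1 array left out Nfyc ran from -0.031 to 0.0027, Ifngr1 from -0.21 to 0.12, Jak2 from -0.11 to 0.12, Ciita from -0.080 to 0.46, Erap1 from -0.25 to 0.10, Krt8 from -0.37 to 0.40, Psmb10 from -0.23 to 0.13 and Tpp2 from -0.17 to 0.16. Without scaling the values were -0.043 for Canx, -0.21 for Lap3, -0.042 for Blmh, -8.7e-05 for Irf9, -0.10 for Nfyb, -0.13 for Rela, -0.27 for Jak2, -0.093 for Tyk2, -0.012 for Ciita, -0.035 for Cdh5 and -0.21 for Krt8. Median scaling gave 0.010 for Psmb10, 0.056 for Tpp2, 0.048 for Nfyc and 0.015 for Ifngr1, quantile normalization 0.016 for Psmb10, 0.031 for Erap1, 0.010 for Tpp2 and 0.039 for Ifngr1, an offset of 32 -0.0010 for Krt8 and the dimmest probe set rule 0.17 for Erap1. Of 783 recomputed values of called genes 51 lost the call in that direction, 4 of which were called the other way, and of 400 values of genes not called 1 became called. Signals near the level, such as the dim Tap1, H2-Q7 and H2-T23 probe sets, bound what these arrays can show.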
